A study of Rattus norvegicus with 12 samples.

Results

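Ets1, Ets2, Elk1, Elk3, Elk4, Elf1, Gabpa and Etv5 encode transcription factors of the ETS family, and their transcript levels are described here in rat aortic smooth muscle cells stimulated through thrombin receptors. The genes were taken by name, through every probe set of the array whose annotation gives exactly 1 gene symbol and gives one of these 8. This found 8 of the 14217 genes with such a probe set, measured by 16 of 31099 probe sets. All 16 probe sets were bright enough to be tested, as were 9906 genes in all.

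The cells were primary cultures from the aorta of newborn rats, kept without serum overnight before stimulation. In 3 experiments, 2 arrays of unstimulated (basal) cells stand beside 2 arrays of cells stimulated for 120 min, 12 arrays in all. Cells received 2 U/ml thrombin in the first, 25 µM of the peptide TRAP (thrombin receptor-activating peptide) in the second, and the same 25 µM TRAP following a 24 h treatment with 200 ng/ml pertussis toxin (PTX) in the remaining one. For the basal cells of the PTX experiment the labels name no agent, so it is unclear if they had PTX too. The labels give no difference of genotype or strain between the groups, and none says whether replicates are separate cultures. The p-values therefore reflect only how far these samples spread, which may be technical. Thrombin is a clotting protease that cuts and thereby activates receptors on smooth muscle cells, TRAP mimics the new receptor end that this cut exposes, and PTX cuts the link between receptors and Gi-type G proteins. The comparisons ask which of the 8 genes each stimulus changed, and whether thrombin and TRAP, or TRAP with and without PTX, differed.

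ETS factors share a DNA-binding domain that recognises a GGAA core, and many of them are phosphorylated by MAP kinases of the ERK type downstream of Ras. Elk1, Elk3 and Elk4 are the ternary complex factors: they bind beside serum response factor (SRF), which occupies the CArG box of immediate-early promoters, and activate those promoters within minutes of ERK signalling, from protein that is already in the cell. Ets1 and Ets2 are also phosphorylated by ERK, and Ets1 is known for its part in vascular remodelling. Elf1 belongs to another branch of the family, known mostly from blood and endothelial cells. Gabpa is the DNA-binding subunit of GABP, a factor of housekeeping and mitochondrial genes, and Etv5 belongs to the PEA3 branch, whose expression follows growth factor signalling in many tissues.

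The sites these factors read can be seen in rat promoters of the RefSeq annotation of build GRCr8, taken from 250 bases before to 50 bases after the start site. Letters were searched on both strands: CCGGAA and GGAAGT as ETS sites (which overlap where CCGGAAGT occurs), TGACTCA as an AP-1 site, TGACGTCA as a cyclic AMP response element, and the CArG box. The promoters searched were those of the 7 genes other than Ets1, 9 in all, since Elk4 has 3. The first pair of sequences shows CArG boxes and any GGAA core within 10 bases in capitals. A core that overlaps a box is marked too, so a marked core is not always a separate site beside the box. In Egr1 (chr18:26736828-26737127, plus strand) CArG boxes lay at -105 to -96 and -83 to -74 from the start site, with 3 cores on the opposite strand, the first at -107 to -104, and the outer cores overlap a box. In Srf (chr9:21923826-21924125, plus strand) they lay at -81 to -72 and -61 to -52, with a core at -53 to -50 that overlaps the second box.
Egr1: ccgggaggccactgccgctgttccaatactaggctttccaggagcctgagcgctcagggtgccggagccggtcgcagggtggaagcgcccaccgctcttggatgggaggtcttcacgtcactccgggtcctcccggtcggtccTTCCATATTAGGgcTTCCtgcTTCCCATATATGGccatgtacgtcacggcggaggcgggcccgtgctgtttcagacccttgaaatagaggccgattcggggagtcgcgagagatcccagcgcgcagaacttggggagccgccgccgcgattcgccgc
Srf: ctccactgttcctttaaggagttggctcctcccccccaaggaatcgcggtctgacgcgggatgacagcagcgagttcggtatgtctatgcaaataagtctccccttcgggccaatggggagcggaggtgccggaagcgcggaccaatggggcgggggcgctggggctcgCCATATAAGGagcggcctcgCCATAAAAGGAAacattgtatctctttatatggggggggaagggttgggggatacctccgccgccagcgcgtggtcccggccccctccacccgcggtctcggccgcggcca

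The second pair shows ETS sites in promoters of the family itself, with the matches in capitals. In Elk4 (chr13:46003939-46004238, plus strand) CCGGAA lay at -59 to -54 and GGAAGT at -57 to -52, so that the pair reads as 1 site. In Ets2 (chr11:48490807-48491106, plus strand) GGAAGT was found on the opposite strand at 41 to 46, after the start.
Elk4: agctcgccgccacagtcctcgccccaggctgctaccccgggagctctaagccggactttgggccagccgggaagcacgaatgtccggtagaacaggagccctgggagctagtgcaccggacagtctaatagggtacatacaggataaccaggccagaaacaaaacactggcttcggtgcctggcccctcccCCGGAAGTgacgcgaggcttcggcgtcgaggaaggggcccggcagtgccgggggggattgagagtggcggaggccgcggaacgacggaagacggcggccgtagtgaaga
Ets2: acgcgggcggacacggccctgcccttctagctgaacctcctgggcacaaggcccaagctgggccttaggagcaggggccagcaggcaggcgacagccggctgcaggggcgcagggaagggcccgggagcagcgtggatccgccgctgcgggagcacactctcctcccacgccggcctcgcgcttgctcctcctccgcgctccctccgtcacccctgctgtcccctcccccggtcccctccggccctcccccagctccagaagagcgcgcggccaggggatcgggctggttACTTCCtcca

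The letters GGAAGT stood in all 3 Elk4 promoters and in those of Gabpa and Ets2, and CCGGAA in Gabpa and in the Elk4 promoter shown. Over all 33469 promoters of the same length, 22.6% held GGAAGT and 15% held CCGGAA. None of these 9 promoters held the AP-1 site, the cyclic AMP response element or the CArG box in this window, letters found in 4.63%, 1.83% and 1.64% of all promoters. A CArG box with a GGAA core within 10 bases, overlapping cores included, stood in 265 of the 33469 promoters (0.792%). Among 11 promoters of the target genes listed further on and of Srf, it stood in 3, those of Egr1, Egr2 and Srf. In Srf the only such core overlaps its box. These matches are descriptions of sequence and not measured binding.

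Signals are linear Affymetrix intensities scaled by the authors to a common mean per array, and 1 probe set's signal is not comparable with another's. Median signals of the 12 arrays lay between 39.7 and 53.6, and replicate arrays correlated with r from 0.983 to 0.991. Arrays of the thrombin experiment correlated less with those of the other experiments (0.913 to 0.941), so levels are compared across experiments only with that in view. The 8 arrays of the TRAP experiments also fell into 2 sets by the acute-phase gene Saa3, which was low (15.9 to 22.8) on the basal pair of the TRAP experiment, on replicate 2 with TRAP and on replicate 1 with TRAP after PTX. It was high (222.5 to 420.9) on the basal pair of the PTX experiment and on the other stimulated arrays, replicate 1 with TRAP and replicate 2 with TRAP after PTX. These sets come from the data and are no groups of the study. All 6 smooth muscle markers listed passed the brightness filter, while 4 of 5 endothelial markers lay under it (summed signal of the 5 from 39.2 to 108). Under it also lay 3 of 5 leukocyte markers (summed signal from 355.2 to 660.6, most of it Cd14 at 296.9 to 578.4). All 4 fibroblast markers, Mfap5, Dcn, Lum and Pdgfra, passed the filter. Their summed signals ran from 5340.4 to 8993.8, most of it Mfap5 at 4658.4 to 6222. Markers of both smooth muscle and fibroblasts were thus measured in these cultures. Such sums follow the brightest probe sets and do not give the amount of a cell type. In RNA of whole cultures, fewer cells of a type and less RNA per cell cannot be told apart.

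Changes are differences of log2(signal + 16) between stimulated arrays and the basal arrays of the same experiment, tested with limma in 1 fit of all 12 arrays. The p-values are adjusted by the Benjamini-Hochberg method over all 18625 tested probe sets, with a threshold of 0.05, and the pseudocount of 16 understates changes of dim genes. Where a gene has several probe sets, the brightest stands for it.

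Ets1 and Ets2 rose with all 3 stimuli, by 1.71-fold to 2.45-fold, and Elf1 rose with thrombin. Of the ternary complex factors, Elk4 rose with TRAP by a small amount, Elk3 rose slightly in the average of the 3 responses, and Elk1 passed no test. No test called Gabpa or Etv5. With thrombin 3 of the 8 genes were called higher and 0 lower, where 2.97% of all tested genes were called higher and 2.65% lower. With TRAP 3 of the 8 were called higher and 0 lower (2.15% and 1.81% of all tested genes), and with TRAP after PTX 2 were called higher and 0 lower (1.69% and 1.27%). The median change of the 8 was 0.34 with thrombin, 0.31 with TRAP and 0.18 with TRAP after PTX, beside medians of -0.06, -0.03 and -0.04 over all tested genes. Beside the thrombin calls, all 6 smooth muscle markers had positive thrombin changes, 5 at an unadjusted p under 0.05, and Cnn1 rose (0.63, adjusted p = 0.00247). No smooth muscle marker passed with TRAP or TRAP after PTX, and no fibroblast marker passed with any single stimulus. Pdgfra fell by 0.34 in the average (adjusted p = 0.0471), a change that 9 of the 12 fits without 1 array did not call. The part of these markers in the calls of the 8 genes was not tested. In the average of the 3 responses, which uses all the arrays again, 5 of the 8 were called higher and 0 lower, beside 5.8% and 8.98% of all tested genes. The 8 genes were chosen with earlier results of these data known. Their counts and medians beside those of all tested genes are therefore no independent evidence about the family.

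**Figure D1:**
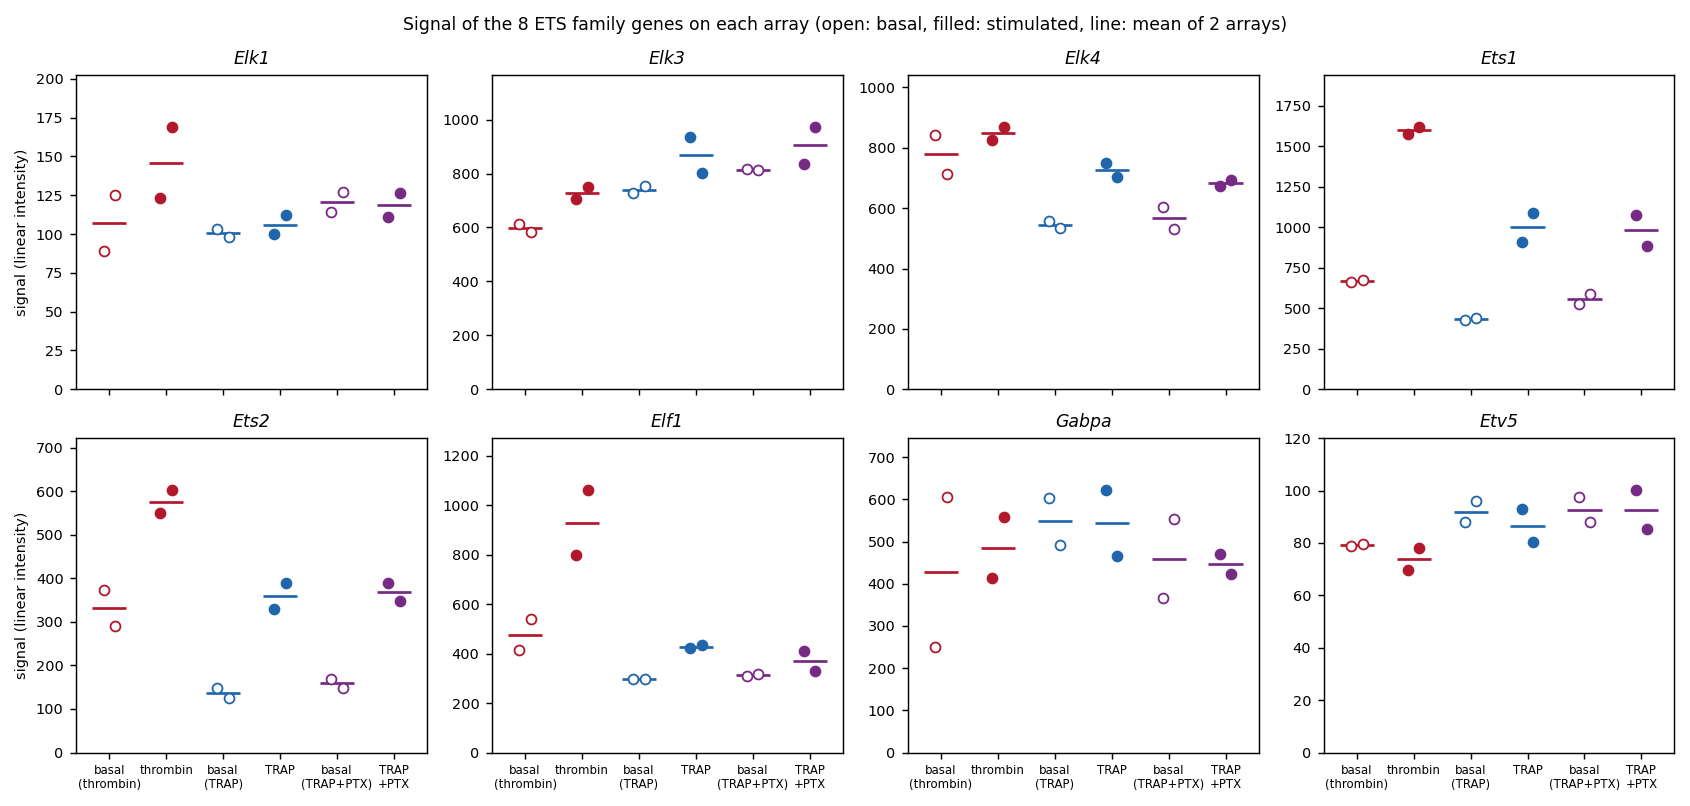
Signal of each of the 8 genes (linear intensity, 1 panel per gene, axis from 0) on each array. Open points are basal arrays, filled points stimulated arrays and lines the mean of the 2 arrays of a group. In the Ets1 and Ets2 panels every filled point lies above both open points of its experiment, and in the Gabpa panel the groups overlap in all 3 experiments.

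The ternary complex factors come first, since they are the family members through which ERK signalling is known to reach SRF. Elk4, also called SAP-1, had signals of 556.8 and 534.8 on the basal arrays of the TRAP experiment and 749.2 and 704.8 after TRAP. The basal signals of the PTX experiment were 603.2 and 529.5, and those after PTX and TRAP 674.1 and 694.3. In both experiments the stimulated arrays lay above both basal arrays. In the thrombin experiment they overlapped, at 843.7 and 713.6 without and 826.6 and 868.9 with thrombin. In limma's test the TRAP change was 0.40 ± 0.10 (SE, log2, n = 2 against 2, 1.32-fold, adjusted p = 0.0474), at the edge of the threshold. Of the 12 fits that leave out 1 array, 8 did not call it (adjusted p from 0.0602 to 0.260). With the array sets as a block its adjusted p was 0.106. The changes with TRAP after PTX, 0.27, and with thrombin, 0.12, did not pass (adjusted p = 0.204 and 0.598). Averaged over the stimuli, Elk4 rose by 0.27 ± 0.06 (adjusted p = 0.0101). The dimmer probe sets of Elk4, 1396356_at and 1372204_at, changed by 0.45 and 0.05 with TRAP, and neither passed (adjusted p = 0.105 and 0.940). With TRAP after PTX they changed by 0.07 and 0.55, in the other order of size (adjusted p = 0.851 and 0.146). Their average changes, 0.25 each, did not pass limma's test either (adjusted p = 0.0554 and 0.154).

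Elk3, also called Net, is the ternary complex factor known as a repressor until it is phosphorylated. Its signal was 611.8 and 581.6 on the basal and 707.3 and 749.7 on the thrombin arrays. In the TRAP experiment it was 727.2 and 752.2 without and 936.1 and 802.7 with TRAP. After PTX it was 815.8 and 813.8 without and 836.0 and 972.5 with TRAP. Stimulated arrays lay above basal arrays each time, but the changes, 0.28, 0.22 and 0.14 on the log2 scale, did not pass limma's test singly (adjusted p = 0.157, 0.300 and 0.515). The average, 0.22 ± 0.06, passed it (adjusted p = 0.0291), but 9 of the 12 fits without 1 array did not call it (adjusted p from 0.0518 to 0.0855).

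The other 3 probe sets of Elk3 did not all follow. One, 1374134_at, had changes of 0.35, 0.12 and 0.12 with thrombin, TRAP and TRAP after PTX, and another, 1384306_at, of 0.01, 0.38 and 0.00. The third, 1394473_at, ran in opposite directions: 52.2 and 59.8 on basal against 66.8 and 88.8 on thrombin arrays, but 122.2 and 106.2 on basal against 90.6 and 88.9 on TRAP arrays. In the PTX experiment it stood at 149.0 and 145.9 on basal and 101.7 and 96.3 on stimulated arrays. Its groups overlap in none of the experiments, with the thrombin arrays above and both kinds of TRAP array below their basal arrays. Among all tested genes, 17.7% had both thrombin arrays above both basal arrays, so that separation is common. The shares below with TRAP and TRAP after PTX are not given here. None of the changes of 1394473_at, 0.37 ± 0.16, -0.30 ± 0.16 and -0.51 ± 0.16, passed limma's test (adjusted p = 0.224, 0.381 and 0.110). The difference between its thrombin and TRAP changes, 0.67 with a 95% interval from 0.19 to 1.15, did not pass either (adjusted p = 0.269). For Elk3 the sign of these uncalled TRAP changes thus differs between probe sets. The files do not give the part of the transcript that each probe set reads.

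Elk1, the best known of the 3 as a target of ERK, was called by no test. Its signal ran from 88.9 to 169.0 over the 12 arrays, with 88.9 and 125.1 on the basal and 123.0 and 169.0 on the stimulated arrays of the thrombin experiment, which overlap. The changes were 0.40 ± 0.18 with thrombin, 0.06 with TRAP and -0.02 with TRAP after PTX (limma, adjusted p = 0.256 for thrombin). The 95% interval of the thrombin change, from 0.02 to 0.78, holds changes as large as that of Elk4 with TRAP. A dimmer second probe set gave -0.05, 0.05 and -0.15.

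Ets1 separated stimulated from basal arrays across the whole series. Its signal was 660.8 and 671.9 on the basal and 1578.2 and 1619.9 on the thrombin arrays. In the TRAP experiment it was 427.7 and 443.2 without and 911.1 and 1088.9 with TRAP. After PTX it was 523.8 and 591.0 without and 1077.2 and 886.4 with TRAP. Every stimulated array, of any experiment, lay above every basal array. Group means rose from 666 ± 7.85 to 1599 ± 29.5 with thrombin, from 435 ± 11.0 to 1000 ± 126 with TRAP and from 557 ± 47.5 to 982 ± 135 with TRAP after PTX (SD, n = 2 each). In limma's test the changes were 1.24 ± 0.11 (SE, log2, 2.37-fold, adjusted p = 2.91e-05), 1.16 ± 0.11 (2.24-fold, adjusted p = 6.5e-05) and 0.80 ± 0.11 (1.74-fold, adjusted p = 0.00183). All 3 calls held in each of the 12 fits that leave out 1 array, the weakest with TRAP after PTX at an adjusted p of 0.0346.

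The stimulated Ets1 signals of the TRAP experiments also followed the array sets. They were 1088.9 and 1077.2 on the set with low Saa3 and 911.1 and 886.4 on the set with high Saa3, with and without PTX alike. With the sets as a block, the changes were 1.30 with TRAP and 0.66 with TRAP after PTX, both still called (adjusted p at most 0.00295).

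Ets2, the close relative of Ets1, had its highest basal signals in the thrombin experiment, 373.0 and 290.2, and reached 549.4 and 602.0 with thrombin. In the TRAP experiment it went from 148.5 and 125.8 to 330.2 and 388.0. After PTX it went from 169.5 and 147.6 to 389.3 and 347.4. The groups do not overlap within any experiment, although the higher basal array of the thrombin experiment lay above the lower array of both TRAP groups. The changes were 0.78 ± 0.14 (SE, log2, 1.71-fold, limma, adjusted p = 0.00583) with thrombin, 1.29 ± 0.14 (2.45-fold, adjusted p = 0.000177) with TRAP and 1.14 ± 0.14 (2.20-fold, adjusted p = 0.000559) with TRAP after PTX. The thrombin call was lost without thrombin replicate 2 (0.71, adjusted p = 0.0749) and held in the other 11 fits that leave out 1 array, and the calls of both TRAP experiments held in all 12.

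Elf1 was measured by 2 probe sets that both rose with thrombin. On the brighter one the signal was 413.0 and 539.7 on the basal and 798.4 and 1059.8 on the thrombin arrays. On the other it was 211.0 and 205.8 without and 388.5 and 385.8 with thrombin. The groups do not overlap on either, and the changes were 0.94 ± 0.15 (SE, log2, 1.92-fold, limma, adjusted p = 0.0022) and 0.85 ± 0.14 (adjusted p = 0.00374). The call of the brighter probe set held in each of the 12 fits without 1 array (adjusted p up to 0.0432). With TRAP the brighter probe set went from 297.5 and 295.5 to 423.6 and 432.6, a change of 0.51 ± 0.15 that did not pass (adjusted p = 0.0823). The dimmer one, at 119.9 and 140.8 without and 143.5 and 130.2 with TRAP, overlapped and changed by 0.07 (adjusted p = 0.890). After PTX the changes were 0.22 and 0.29 (adjusted p = 0.491 and 0.334). Averaged over the stimuli, the rise of Elf1 was 0.55 ± 0.09 (adjusted p = 0.000867).

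Replicate arrays of Gabpa differed by more than its basal and stimulated group means did. Its signal was 250.2 and 606.6 on the basal and 414.1 and 557.8 on the thrombin arrays, 604.0 and 493.0 without and 621.7 and 466.9 with TRAP, and 366.2 and 552.4 without and 471.6 and 423.1 with TRAP after PTX. The groups overlap in all 3 experiments. The changes were 0.29, -0.02 and -0.01, each with an SE of 0.30, so that a change of the size of Elk4's was not detectable in this gene.

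Etv5 lay between 69.5 and 100.1 on all arrays, with 78.8 and 79.5 on the basal and 69.5 and 78.1 on the thrombin arrays, both below. The thrombin change was -0.09, the TRAP change -0.07 and the change with TRAP after PTX 0.00, and none passed. A dimmer probe set, with a mean signal of 32.2, gave 0.43, 0.37 and -0.26. Among all tested genes, 33.3% had both thrombin arrays below both basal arrays, so the separation of Etv5 is common.

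Counted the same way, both stimulated arrays lay above both basal arrays for 4 of the 8 genes with thrombin, where 17.7% of all tested genes did so. With TRAP this held for 5 of the 8 (19.7% of all tested genes), and with TRAP after PTX for 5 (16.8%).

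**Figure D2:**
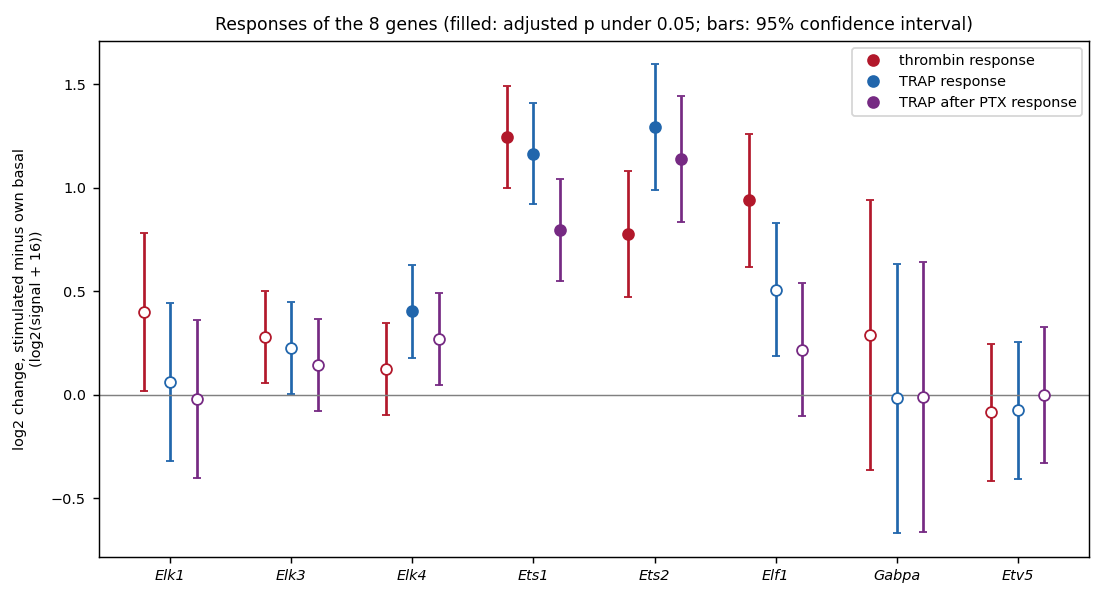
Log2 change of each of the 8 genes with thrombin, TRAP and TRAP after PTX, each against its own basal arrays. Points are limma estimates with 95% confidence intervals, filled where the adjusted p is under 0.05. The filled points are the 3 of Ets1, the 3 of Ets2, the thrombin change of Elf1 (0.94) and the TRAP change of Elk4 (0.40).

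**Figure D3:**
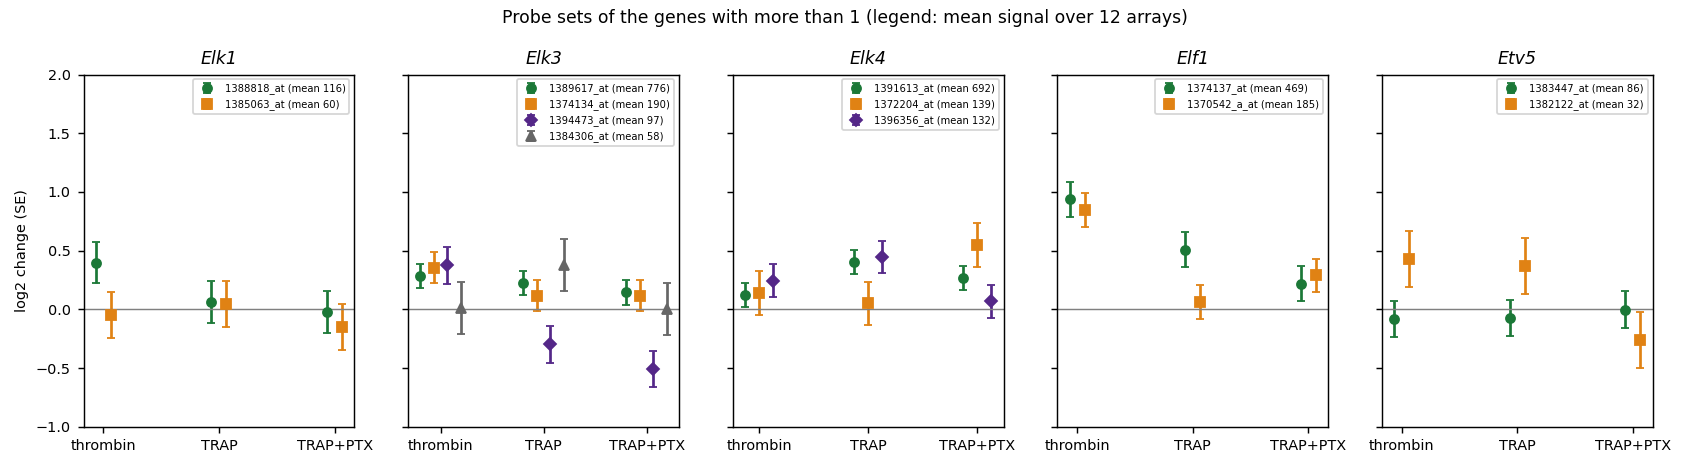
Log2 changes (± SE) of every probe set of the 5 genes that have more than 1, by stimulus, with the mean signal over the 12 arrays in the legend. The Elf1 probe sets lie close together with thrombin (0.94 and 0.85), while probe set 1394473_at of Elk3 lies above 0 with thrombin (0.37) and below 0 with TRAP (-0.30) and TRAP after PTX (-0.51).

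Whether thrombin and TRAP differed was tested directly as the difference of the 2 changes, each with its own basal arrays. None of the 8 genes passed limma's test, where 0.515% of all tested genes did, and 1 of the 8, Ets2, had an unadjusted p under 0.05. The Ets2 change was smaller with thrombin than with TRAP by 0.52 on the log2 scale (difference -0.52, 95% interval from -0.95 to -0.08, adjusted p = 0.375), beside a higher basal level in the thrombin experiment. The Ets1 changes differed by 0.08 (95% interval from -0.27 to 0.43, adjusted p = 0.926). The Elf1 difference was 0.43 on the brighter probe set (95% interval from -0.02 to 0.89, adjusted p = 0.528) and 0.78 on the other (adjusted p = 0.137), so the response of Elf1 is not shown to differ between the stimuli.

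The effect of PTX on the TRAP change was tested in the same way. Again 0 of the 8 genes passed, where 0.0909% of all tested genes did, and 1 of the 8, Ets1, had an unadjusted p under 0.05. The Ets1 change was -0.37 relative to that without PTX (95% interval from -0.72 to -0.02, adjusted p = 0.570). With the array sets as a block it was -0.63 (adjusted p = 0.188), so the estimate moved by over 1.5 times with the sets. Without TRAP replicate 1 and TRAP after PTX replicate 1, which differ in set from their basal arrays, it was again -0.63 (adjusted p = 0.294). For Ets2 the difference was -0.15 (95% interval from -0.58 to 0.28, adjusted p = 0.903). Its interval allows the Ets2 response after PTX to be lower or higher than without it.

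Basal levels differed between the experiments for Ets1, Ets2, Elk3, Elk4 and Elf1, 5 of the 8 genes, in limma's F test over the 3 basal groups (adjusted p from 3.68e-05 to 0.00949). This is near what the arrays show in general, since 41.5% of all tested genes passed that test. Ets2 was 1.18 higher on the log2 scale on the basal arrays of the thrombin than of the TRAP experiment, Elf1 0.64, Ets1 0.60 and Elk4 0.50. Elk3 was lower there by 0.30 (difference -0.30), and its probe set 1394473_at by 0.85 (difference -0.85). Between the basal arrays of the PTX and the TRAP experiment the differences of the 8 genes ran from -0.27 for Gabpa to 0.34 for Ets1. In order of group mean, Ets1 ran from 435 on basal TRAP, 557 on basal PTX and 666 on basal thrombin arrays to 982 with TRAP after PTX, 1000 with TRAP and 1599 with thrombin. The neighbours at 982 and 1000 lie within their spread. Ets2 ran from 137 and 159 on the basal arrays of the TRAP experiments, within their spread, to 332 on basal thrombin arrays. The stimulated groups of Ets2 followed at 359, 368 and 576, with TRAP and TRAP after PTX within their spread of each other and of the basal thrombin arrays. Culture, array set and experiment cannot be told apart in these basal differences. The summed signal of smooth muscle markers was 9730 to 10259.6 on the basal thrombin and 14752.1 to 17199.7 on the basal TRAP arrays. That of the 4 fibroblast markers was 5544.5 to 5544.7 and 8333.9 to 8993.8 there, and Pdgfra stood at 48.2 and 71.1 against 371.6 and 390.0. Dcn stood at 783.7 and 655.4 against 2423.5 and 2275.9, and Lum at 13.3 and 24.0 against 158.1 and 148.7. The part of these markers in the differences was not tested.

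For the genes called in at least 1 response, the most similar other genes were found by Pearson's r over the 12 arrays, each array taken relative to the basal mean of its experiment. The arrays share their basal groups and large responses dominate such an r, so it is a description. The genes were picked for likeness on these same arrays, so a like order of their changes follows in part from the choice. Nearest to Ets1 were Hbegf, an EGF receptor ligand (r = 0.993), Plaur, the urokinase receptor (0.984), and Fosl1, the AP-1 factor Fra-1 (0.983). Hbegf changed by 1.98, 1.57 and 1.19 with thrombin, TRAP and TRAP after PTX, in the same order as Ets1, and Fosl1 by 3.78, 3.49 and 3.17. Nearest to Ets2 were Dnajb1, a heat shock co-chaperone (0.985), Dusp6, an ERK phosphatase (0.982), and Frmd6 (0.979). Dusp6 changed by 1.23, 2.06 and 1.92 and, like Ets2, changed least with thrombin. Nearest to Elf1 were Ier5, an immediate-early gene (0.963), Azin1, an inhibitor of antizymes (0.960), and Ate1, an arginyltransferase (0.960). Nearest to Elk4 were Tmem39a (0.967), Il1r1, the interleukin-1 receptor (0.957), and Patl1, an mRNA decay factor (0.950). Il1r1 changed by 0.28, 0.85 and 0.54, and Elk4 by 0.12, 0.40 and 0.27.

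The rest of the family was compared through 18 other ETS genes, of which 15 had a single-symbol probe set and 7 were bright enough to test. Under the filter lay Etv2, Erg, Elf3, Elf5, Ehf, Spic, Fev and Spdef. None of the 7 passed limma's test with thrombin, TRAP or TRAP after PTX, with 2, 1 and 2 at an unadjusted p under 0.05, and their median changes were 0.06, 0.03 and 0.04. Only Etv3, a repressor of the family, rose in the average (0.20 ± 0.06, adjusted p = 0.0471). Of the 12 fits without 1 array, 9 did not call Etv3 (adjusted p up to 0.134), nor did the fit without TRAP replicate 1 and TRAP after PTX replicate 1 (0.15, adjusted p = 0.226). The PEA3 relatives of Etv5 gave average changes of -0.29 for Etv1 and 0.29 for Etv4, and Etv6, a repressor, gave -0.24. None of these 3 passed (adjusted p from 0.0939 to 0.325).

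The partners of these factors were a list of 7 genes, of which 4 were tested, and Srf alone passed. Srf signals were 704.1 and 862.8 on the basal and 1931.0 and 1898.4 on the thrombin arrays, 629.7 and 603.5 without and 933.6 and 876.2 with TRAP, and 803.5 and 690.4 without and 853.9 and 855.4 with TRAP after PTX. Stimulated arrays lay above basal arrays each time, by the widest margin with thrombin. Srf, the factor that Elk1, Elk3 and Elk4 bind beside and whose own promoter holds the CArG boxes printed above, rose by 1.28 ± 0.11 with thrombin (adjusted p = 1.35e-05) and by 0.54 ± 0.11 with TRAP (adjusted p = 0.0122). Its change with TRAP after PTX, 0.19, did not pass (adjusted p = 0.387). The TRAP call was lost in 3 of the 12 fits without 1 array (adjusted p up to 0.114), while the thrombin call held in all 12. The difference between thrombin and TRAP, 0.74 ± 0.15, missed the threshold (adjusted p = 0.0535). Gabpb1, the partner of Gabpa in GABP, and the SRF coactivators Mrtfa and Myocd did not pass, with average changes of 0.16, -0.13 and 0.13. The Myocd average covers changes of both signs, 0.27 with thrombin, -0.39 with TRAP and 0.52 with TRAP after PTX. None of the 3 passed (limma, adjusted p = 0.566, 0.393 and 0.232), nor did the effect of PTX, 0.91 ± 0.30 (adjusted p = 0.380). Its thrombin arrays read only 45.2 and 31.7, near the filter. Myocd, the smooth muscle coactivator of SRF, differed in its basal signal, 18.0 and 43.0 in the thrombin against 597.3 and 520.2 in the TRAP experiment (limma F test, adjusted p = 3.74e-08).

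Transcripts of the kinase pathway that acts on these factors were not called. Of 15 Ras-ERK genes, 8 were tested and 0 passed limma's test with any stimulus, with 2, 1 and 0 at an unadjusted p under 0.05, and their medians were -0.07, -0.01 and -0.06. Those with the smallest p in the average were the scaffold Ksr1 (-0.41), the adaptor Grb2 (0.09), the exchange factor Sos1 (0.14) and the kinase Map2k1 (0.06). The arrays measure transcripts, so they hold no value for kinase activity or for phosphorylation of Elk1, Elk3, Elk4, Ets1 or Ets2.

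Genes known as targets of SRF with ternary complex factors were a list of 12, of which 11 were tested. With thrombin 8 of them rose, with TRAP 6 and with TRAP after PTX 7, while 0 fell. Of all tested genes, 2.97%, 2.15% and 1.69% were called higher. The median changes of the list were 1.60, 1.30 and 0.87. It was chosen with results of these data known, so its counts are no independent evidence. Egr1, the zinc-finger factor whose CArG boxes and GGAA cores are printed above, went from 1076.2 and 1041.1 to 3223.4 and 3259.5 with thrombin. It went from 582.0 and 749.9 to 2570.7 and 2793.3 with TRAP, and from 598.6 and 601.7 to 3261.3 and 3139.8 with TRAP after PTX. These are changes of 1.60, 1.99 and 2.38 ± 0.11 (adjusted p at most 1.35e-06), far outside the spread of the replicates. Egr2, with 1 CArG box, changed by 3.09, 1.70 and 1.94, Ier2 by 2.09, 1.49 and 1.32, and Junb by 1.80, 1.48 and 1.24, all of them called, also in every fit without 1 array. Other calls of the list were less stable, with those of Fosb and Nr4a1 with TRAP lost in 3 of the 12 fits each (adjusted p up to 0.229 and 0.0802). Dusp1 with thrombin and Ccn1 with TRAP after PTX were lost in 2 fits each, and Nr4a1 with TRAP after PTX in 1. Fos, the textbook target of Elk1, gave 0.20, 0.13 and 0.46 at 120 min and did not pass (adjusted p from 0.159 to 0.770).

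Genes known to follow ERK activity were a list of 11, of which 9 were tested. Of these, 4 rose with thrombin, 3 with TRAP and 3 with TRAP after PTX, while 0 fell. Among all tested genes 2.97%, 2.15% and 1.69% were called higher. The list was split, with median changes of 0.67, 0.03 and 0.37. With TRAP 5 of the 9 changed upward and 4 downward, from -0.35 to 2.06. Dusp6, which removes the activating phosphates of ERK and is itself induced through ETS factors, went from 582.5 and 456.4 to 1288.4 and 1176.9 with thrombin. Its signal went from 188.6 and 190.2 to 758.3 and 936.1 with TRAP, and from 190.0 and 243.0 to 915.0 and 804.1 after PTX. All 3 changes of Dusp6 passed in every fit that left out 1 array. The thrombin count includes Spry4 (0.69, adjusted p = 0.0488), which 10 of those 12 fits (adjusted p up to 0.239) and the fit with the replicate block (0.0754) did not call. The receptor tyrosine kinase gene Epha2 rose by 1.56, 0.92 and 1.06 and Phlda1 by 1.70, 1.78 and 1.34. Of these 6 calls, that of Epha2 with TRAP was lost in 3 fits, without either basal TRAP array or TRAP replicate 2 (adjusted p up to 0.0589). That of Phlda1 with TRAP after PTX was lost without basal PTX replicate 2 or TRAP after PTX replicate 1 (adjusted p up to 0.0780). Spry2, an inhibitor of receptor tyrosine kinase signalling, rose in the average (0.65 ± 0.14, adjusted p = 0.00811) and passed with no single stimulus.

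Genes described as Ets1 targets in vascular cells were a list of 7, of which 3 were tested, and 3 (Plau, Mmp3 and Mmp9) lay under the filter. With thrombin and with TRAP after PTX 0 of the 3 passed, with 1 and 0 at an unadjusted p under 0.05, and with TRAP Ccl2 and Cdkn1a rose. The CDK inhibitor Cdkn1a changed by 0.48 ± 0.11 with TRAP (adjusted p = 0.0332), a call lost without either basal TRAP or either TRAP array (adjusted p up to 0.195). The chemokine Ccl2 stood at 607.6 and 598.4 without and 6680.9 and 1590.9 with TRAP, the higher value on the array of the set with high Saa3. Its change was 2.41 ± 0.59 (adjusted p = 0.0384), which 9 of the 12 fits without 1 array did not call (adjusted p up to 0.287). With the array sets as a block it was smaller, 1.34, and called with a lower adjusted p of 0.000119, which is no independent support, since Ccl2 splits with the sets. With thrombin Ccl2 went from 564.1 and 727.7 to 1896.3 and 2206.2, which do not overlap, a change of 1.65 ± 0.59 that did not pass (adjusted p = 0.149). In the PTX experiment Ccl2 stood at 4003.5 and 3396.6 without and 1433.8 and 6720.7 with TRAP, a change of -0.24 (adjusted p = 0.874). Unstimulated arrays of the high Saa3 set thus already lay far above the basal arrays of the TRAP experiment. Plau, the urokinase gene, had no test but read 7.8 and 10.0 without and 41.5 and 43.5 with TRAP, and 11.0 and 20.0 without and 40.4 and 37.6 with TRAP after PTX. Its thrombin arrays, 9.0 and 20.7, overlapped the basal ones at 10.6 and 7.0. Vcam1, the leukocyte adhesion molecule, gave -0.61, 0.38 and -0.51 and did not pass. The lists were chosen with results of these data known, so their counts are no independent evidence.

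**Figure D4:**
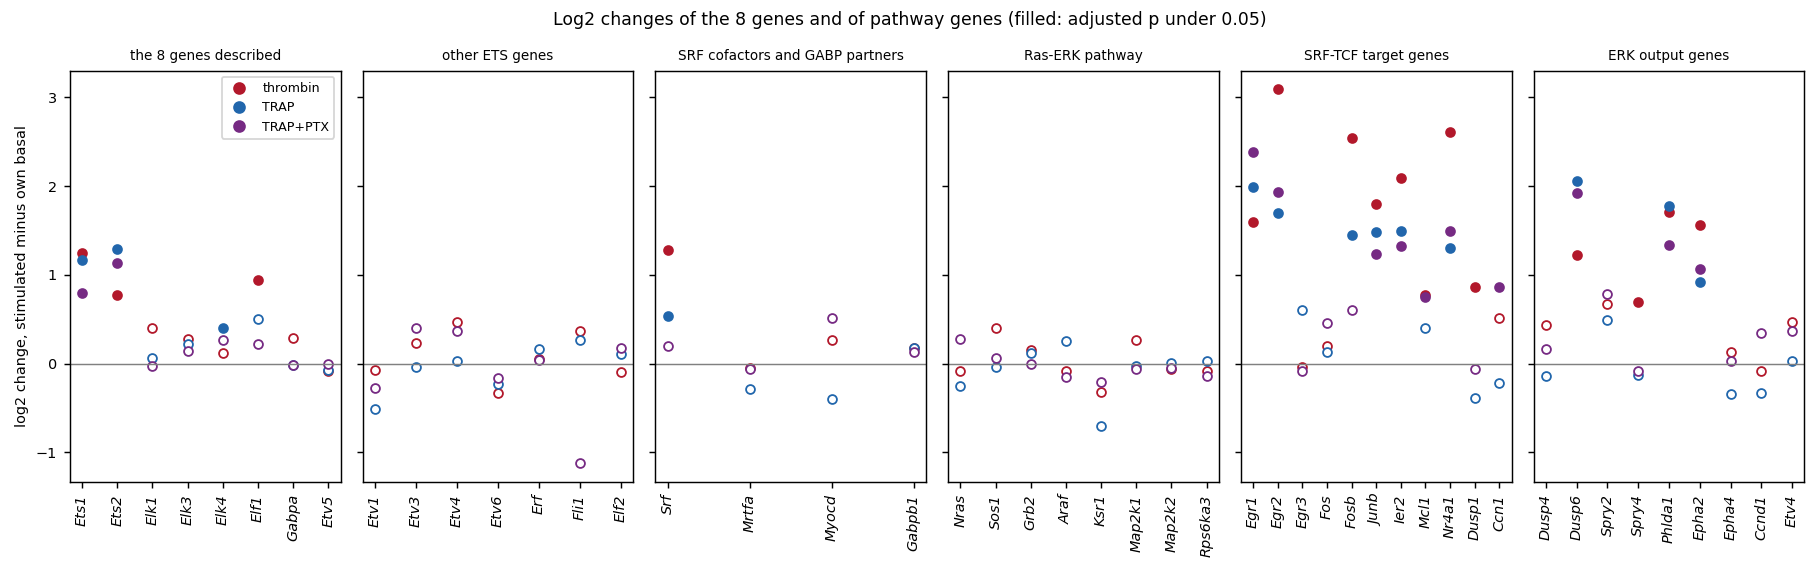
Log2 changes with thrombin, TRAP and TRAP after PTX of the 8 genes and of the tested genes of 5 pathway lists, 1 panel per list, filled where the adjusted p is under 0.05. In the panels of SRF targets and ERK output genes every filled point lies above 0, while open points lie on both sides of it. In the panels of other ETS genes and of the Ras-ERK pathway no point is filled.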

How the data were processed

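The authors made the deposited values with GCOS 1.4, per the submitters' processing notes. They are intensity values on a linear scale, per the labels, and show a scaling of each array to a trimmed mean of about 200 (200.066 to 200.076). No fold is a bound, because detection calls were not analysed here. The files name no genome build.

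Without the 57 control probe sets, 18625 probe sets remained whose mean log2(signal + 16) exceeded its 40th percentile, a signal of 22.7. A single limma model (version 3.58.1, R 4.3.3) held all 6 groups, which come from the labels, with eBayes moderation that follows intensity (6 residual and 7.50 prior degrees of freedom). Contrasts were each response, their average, the thrombin minus TRAP response, the effect of PTX on the TRAP response and an F test over basal groups, all 2-sided. The number of arrays limits the precision: the median SE of a thrombin response was 0.16. The fit was tested on simulated data.

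The 8 genes and the lists were chosen with earlier results of these data known. All 8 are named, with the genes of each list that had the lowest average-response p (up to 4), and, for each of the 8 genes called in a response, the 3 most similar genes. Genes of the lists named outside this rule, among them Fos, Fosb, Nr4a1, Dusp1, Ccn1 and Spry4, were chosen after their values were seen. So were the genes of the lists given array by array. All 8 matched the current rat annotation by Entrez number.

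The alternatives varied the pseudocount, filter, scaling and trend, weighted the arrays, blocked by replicate number, used the compared arrays alone or other probe sets, and left out each array. A block for the array sets, and a fit without TRAP replicate 1 and TRAP after PTX replicate 1 (whose basal arrays lie in the other set), were chosen after seeing the data. The block counts the thrombin arrays with the low Saa3 set.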

Additional observations from a re-analysis of the deposited data

Results flagged for a closer look

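Probe set 1394473_at of Elk3 stood out because its arrays moved in opposite directions under different stimuli. Both thrombin arrays lay above both of their basal arrays (0.37 on the log2 scale), while both TRAP arrays (-0.30) and both TRAP after PTX arrays (-0.51) lay below theirs. None of these changes passed limma's test, and neither did the difference between the thrombin and TRAP changes (0.67, adjusted p = 0.269). The difference between the thrombin and the TRAP after PTX change was not tested. Separation of 2 arrays from 2 is common, since 17.7% of all tested genes had both thrombin arrays above both basal arrays. Groups of 2 arrays are too small to look for single arrays that stand apart.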

How the results depend on the processing

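The number of the 8 genes called stayed within 1.5 times its value under every alternative run. When 1 array was left out it was 2 to 3 with thrombin, 2 to 3 with TRAP, 2 with TRAP after PTX, 4 to 5 in the average, 0 in both differences and 4 to 5 between basal groups. Under the other settings it was 3 with thrombin and 2 to 4 with TRAP, with the other ranges as before. With the replicate number as a block the counts were 3, 3, 2, 5, 0 and 0, and with TRAP Elf1 was called in place of Elk4 (adjusted p = 0.0281 and 0.0684). Arrays of the same number deviated together only weakly (r = 0.134, 0.104 and 0.0217 over 2 pairs each), and the labels do not say whether a number marks a shared culture or day, so pairing is not established. Elf1 with TRAP also passed, beside Elk4, with array weights (0.0452) and in a fit of the compared arrays alone (0.0229), which gives 4 genes. The Elk4 call with TRAP was lost with a pseudocount of 1 (0.0514), no filter (0.0721), median centring (0.0587), no intensity trend (0.116) and when both stimulated arrays that differ in set from their basal arrays were left out (0.237). The average change of Elk3 was lost with no trend (0.0713) and had the opposite sign on probe set 1394473_at (-0.14). The causes of these changes were not tested. Over the 8 genes, 43 of the planned values and 8 of the added ones changed sign without being called. Median centring moved the median of all tested probe sets by up to 0.10 on the log2 scale, and the changes printed are without it. A fit of the compared arrays alone is no alternative for the average, which uses all arrays. The basal comparison was given no replicate block, since it sets different experiments against each other. Brightness over background was not assessed by detection calls, which limits what can be said of the dim second probe sets of Elk1 and Etv5.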
